A study of Mus musculus with 4 samples.

Results

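The 10 genes described here encode proteins of the insulin granule membrane and of the machinery that docks and primes granules at the plasma membrane. They were taken by symbol from a deposited table of 51912 genes, and each matched 1 entry. RNA sequencing covered sorted β cells of mouse neonates at day 13, with 2 libraries from Robo mutant mice and 2 from control mice. Robo mutants were homozygous for a deleted Robo1 allele (Robo1delta/delta) and for a conditional Robo2 allele (Robo2flx/flx), whereas controls were wild type at both genes. All animals carried 1 copy of Ucn3-Cre and 1 copy of the Rosa26-lsl-H2B-mCherry reporter, so the controls shared the Cre. Ucn3 is a gene of maturing β cells, and Robo2 is lost only where its Cre has acted, while the Robo1 allele is not labelled as conditional. Cells were sorted for mCherry after islet purification and dissociation. Whether each library is a separate animal or a pool is not given in the labels, and p-values therefore rest on library-to-library spread that could be technical in origin.

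β cells store insulin in dense-core granules. Slc30a8 encodes the zinc transporter that loads the granule lumen with the zinc around which insulin crystallises. Ptprn and Ptprn2 encode related transmembrane proteins of the granule, both autoantigens in diabetes, and Sv2a encodes a glycoprotein of secretory vesicles. The small GTPases of Rab27a and Rab3d sit on the granule and recruit effectors, among them granuphilin, the product of Sytl4, which tethers granules to the plasma membrane, and Noc2, the product of Rph3al. Cadps and Cadps2 encode the CAPS proteins, which prime docked granules for fusion.

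No transcript of the 10 passed the adjusted threshold of the test across all genes, and in edgeR neither did Robo1 or Robo2, the genes altered in the mutants. Slc30a8 was by far the most abundant of them in every library, and Cadps2 the least. Ptprn2 was higher in both mutant libraries than in both controls, whereas Rab27a and Sv2a were lower in both, and the other 7 overlapped between genotypes. Of the 10 genes, 0 had an adjusted p under 0.05 in edgeR's quasi-likelihood test, as did 0% of the 16517 genes tested, and 0 did in DESeq2, which called 0.914% of them. At an unadjusted p under 0.05 edgeR had 1 of the 10, Ptprn2, against 6.21% of all tested genes, or 1.99% counting those higher in mutants. Groups did not overlap in 3 of the 10, against 36.6% of all tested genes. The mutant libraries lay above both controls in 1 of the 10 and below both in 2, and the shares over all genes were 16.1% and 20.4%.

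Library totals ran from 38886129 to 49593712 counts, so each of the 10 rested on at least 467 counts in every library. Levels are given as CPM, the count scaled to library size with TMM factors. As a check of the labels, Robo1 was at 22.3 and 21.02 CPM in the mutant libraries, against 48.5 and 104 CPM in controls. Robo2 was at 32.7 and 25.6 CPM in the mutant libraries, against 75.3 and 118 CPM in controls. Their log2 changes were -1.82 and -1.73, yet neither passed in edgeR. The adjusted p of each was 0.680, the smallest of all tested genes. A gene that misses the threshold here is therefore not shown to be equal between genotypes. Gene-level counts do not show how much of the remaining Robo transcript is intact. The 10 β-cell markers summed to 22.7% and 15.95% of the scaled total in Robo mutant 1 and 2, against 23.1% and 19.7% in control 1 and 2. The 21 acinar markers, all detected, summed to 0.477% and 8.26% in Robo mutant 1 and 2, against 0.872% and 0.116% in control 1 and 2. In 5 of the 10 β-cell markers both mutant libraries lay below both controls, against 20.4% of all tested genes, and in 4 of the 21 acinar markers above, against 16.1%. The 9 α-cell markers summed to 1.95% and 2.44% in the mutant libraries and to 2.40% and 1.21% in controls, and the 6 δ-cell markers to 0.269% and 0.149%, against 0.127% and 0.122%. Both mutant libraries lay above both controls in 1 of the 9 and 3 of the 6, against 16.1% of all tested genes. They lay below both in 0 of the 9 and 1 of the 6, against 20.4%. In such bulk samples fewer cells of a type and less RNA per cell cannot be told apart.

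The promoter windows of Ptprn2, the gene of smallest p among the 10, and of the CAPS pair, homologues with a common role that stood far apart in level, are shown from RefSeq on GRCm38.p6. Each is the 120 bases directly upstream of the annotated start, 5′ to 3′ on the strand of the gene, with CpG dinucleotides in capitals. They lie at chr12:116485600-116485719 (plus strand), chr14:12823080-12823199 (minus strand) and chr6:23839422-23839541 (minus strand), and overlap 0 annotated exons.
Ptprn2: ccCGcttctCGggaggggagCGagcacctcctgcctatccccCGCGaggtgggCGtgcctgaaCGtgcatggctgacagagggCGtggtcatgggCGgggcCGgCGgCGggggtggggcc
Cadps: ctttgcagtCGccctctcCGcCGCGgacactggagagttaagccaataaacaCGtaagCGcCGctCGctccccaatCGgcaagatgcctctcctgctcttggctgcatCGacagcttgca
Cadps2: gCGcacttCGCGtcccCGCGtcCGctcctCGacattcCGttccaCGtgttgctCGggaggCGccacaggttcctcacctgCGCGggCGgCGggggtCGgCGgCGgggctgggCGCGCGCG
The Cadps2 stretch held 22 CpG dinucleotides and the Cadps stretch 10, while that of Ptprn2 held 12. Windows of 250 upstream bases were found for 9 of the 10 genes, 11 windows in all, since Ptprn and Rab27a have more than 1 annotated start. Their G and C content ran from 51.6% to 78.0%, with a median of 59.6%, against a median of 52.4% over 32841 windows of all genes. The sequence TATAAA, read on both strands, was in 0 of the 11 and in 12.4% of all windows, and CACGTG was in 2 of the 11, of Cadps2 and Rab27a, and in 6.02% of all. With 44 CpG dinucleotides the Cadps2 window was in the upper 0.539% of all windows. These are features of the reference sequence only.

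Levels were compared between genes as CPM per kilobase of annotated exon. Slc30a8 stood at 620 and 586 CPM per kilobase in Robo mutant 1 and 2, against 612 and 759 in control 1 and 2. It ranked 39th among the tested genes. Sytl4 followed at 93.1 and 65.8 in the mutant libraries, against 80.7 and 110 in controls. Rab3d stood at 66.2 and 45.5 in the mutant libraries, against 67.3 and 64.1 in controls. The ranges of these 2 genes met, but within each library Sytl4 was above Rab3d. Their means over all libraries were 87.3 and 60.8 CPM per kilobase. The lowest Rab3d value, 45.5, also lay within the range of Rab27a, but within each library Rab3d was above Rab27a. Rab27a (40.8), Rph3al (36.3), Ptprn (29.1), Sv2a (25.6) and Ptprn2 (15.4) came next by mean CPM per kilobase over 4 libraries. Neighbours among Rab27a, Rph3al, Ptprn and Sv2a overlapped in their library ranges, whereas the highest Ptprn2 value, 18.4, lay below the lowest Sv2a value, 20.5. Cadps (7.37) and Cadps2 (1.71) were lowest, and each gene was separated from the next above it in all libraries. The length used is the union of all annotated exons, 15.054 kilobases for Cadps, and the order depends on it. In plain CPM Cadps, at 101 to 121, lay within the range of Sv2a, 94.8 to 135. In CPM per kilobase 8 of the 10 genes exceeded at least 82.8% of tested genes, while Cadps exceeded 68.5% and Cadps2 39.03%.

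**Figure D1:**
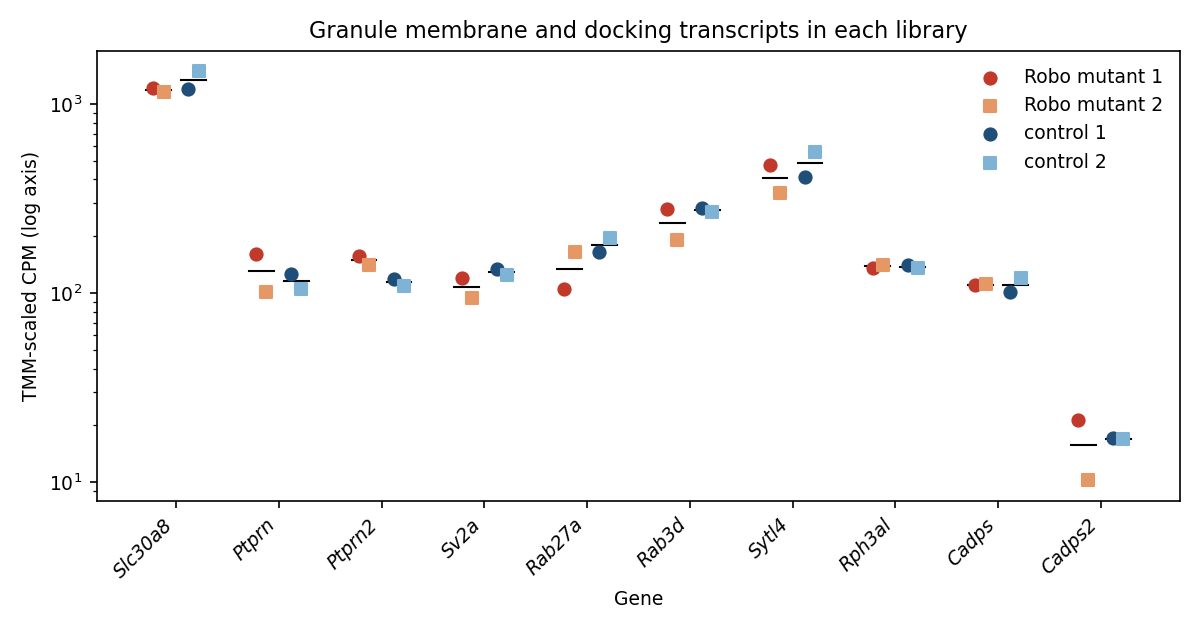
TMM-scaled CPM of each gene in each library, on a log axis, with Robo mutant libraries to the left of controls and black lines at the genotype means (n = 2 each). Slc30a8 lies between 1155 and 1495 CPM and Cadps2 between 10.3 and 21.3 CPM.

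Together the 10 genes summed to 935 and 846 CPM per kilobase in Robo mutant 1 and 2, against 921 and 1093 in control 1 and 2. The ratio of the means, mutant over control, was 0.884 ± 0.123 (propagated SD, n = 2 each), a difference within the spread between libraries. Slc30a8 supplied 66.4% to 69.4% of the sum in every library. Without it the ratio was 0.894.

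Gene positions are those of GRCm38 in GENCODE M21. Of the granule membrane genes, Slc30a8 (chr15:52295553-52335798) was at 1223 and 1155 CPM in the mutant libraries, against 1206 and 1495 CPM in controls. Control 2 stood above the other 3 libraries, which lay close together. The log2 change, mutant over control, was -0.18 with a 95% interval of -0.63 to 0.27 in edgeR, and -0.020 without control 2. An increase of more than 1.20-fold or a decrease of more than 1.55-fold thus lies outside the interval.

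Ptprn2 (chr12:116485720-117276849), whose product is also called phogrin, was at 158 and 142 CPM in the mutant libraries, against 119 and 110 CPM in controls. Both mutant libraries lay above both controls, by a gap larger than the spread within either genotype. The log2 change was 0.39 ± 0.13 (SE), a 1.31-fold higher level, with an interval of 0.041 to 0.74. Its unadjusted p was 0.0355 in edgeR and 0.0092 in DESeq2, and the adjusted p was 0.762 in edgeR and 0.298 in DESeq2, so it did not pass. The change stayed between 0.31 and 0.47 with each library left out in turn. Since both mutant libraries lay above both controls, leaving out a library could not turn its sign. With library totals alone the unadjusted p was 0.085 in edgeR.

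Ptprn (chr1:75247027-75264502), the homologue, was at 161 and 102 CPM in the mutant libraries, against 126 and 105 CPM in controls. Robo mutant 1 was highest and Robo mutant 2 lowest of the 4, so the genotypes overlapped. Its log2 change of 0.19 (interval -0.51 to 0.89) became -0.18 without Robo mutant 1 and 0.48 without Robo mutant 2. Counted per length, Ptprn2 made up 32.6% and 40.7% of the pair in Robo mutant 1 and 2, against 31.8% and 34.1% in control 1 and 2, and these shares overlapped.

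Sv2a (chr3:96181151-96195521) was at 120 and 94.8 CPM in the mutant libraries, against 135 and 125 CPM in controls. Both mutant libraries were below both controls, Robo mutant 1 by a narrow margin. The log2 change was -0.27 ± 0.17 (SE), with an interval of -0.71 to 0.17 (edgeR, unadjusted p = 0.170, adjusted p = 0.930). Sv2a held 93.4% and 86.9% of the per-length level of its family in Robo mutant 1 and 2, against 92.4% and 91.3% in control 1 and 2. Sv2b made up nearly all of the rest.

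**Figure D2:**
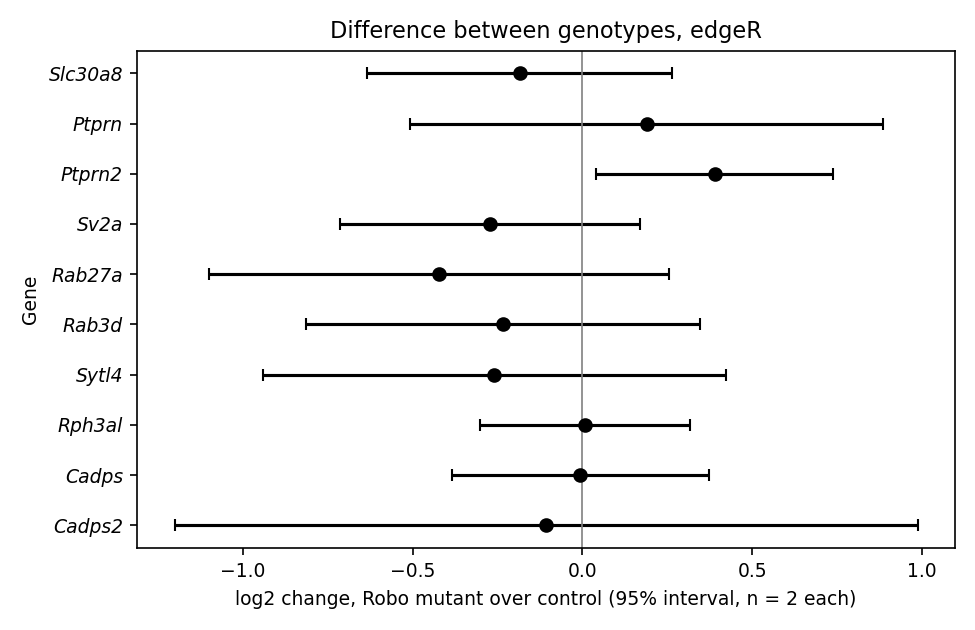
Log2 change of each gene, Robo mutant over control, as points with 95% intervals from edgeR (n = 2 libraries each). The interval of Ptprn2, 0.041 to 0.74, excludes 0 before adjustment, and the other 9 include 0.

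Among the GTPase genes, Rab27a (chr9:73044854-73097629) was at 106 and 165 CPM in the mutant libraries, against 166 and 196 CPM in controls. Both mutant values were below both controls, but Robo mutant 2 was close to control 1 and the low value was that of Robo mutant 1. Its log2 change of -0.42 ± 0.25 (SE) was the lowest of the 10, with an interval of -1.10 to 0.26 (edgeR, unadjusted p = 0.165, adjusted p = 0.930). The change was -0.14 without Robo mutant 1 and -0.78 without Robo mutant 2. Rab27a accounted for 97.6% to 100% of the per-length level of the Rab27 pair. Rab27b, a GTPase gene also known from zymogen granules, had 0 and 506 counts in Robo mutant 1 and 2, against 27 and 118 in control 1 and 2. Its highest count was in the library with the most acinar transcript, but the next highest was in control 2, the library with the least. The part of acinar RNA in the Rab27b counts was not tested.

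Rab3d (chr9:21907491-21918192), whose product is also known from zymogen granules of acinar cells, was at 278 and 191 CPM in the mutant libraries, against 283 and 269 CPM in controls. Robo mutant 1 was level with the controls and Robo mutant 2 stood below the other 3 libraries and held the most acinar transcript. The log2 change was -0.23 (interval -0.81 to 0.35), and 0.012 without Robo mutant 2. Within the Rab3 family, Rab3d took 35.3% and 26.4% of the per-length level in Robo mutant 1 and 2, against 41.8% and 38.8% in control 1 and 2. Rab3b took 31.3% and 45.9% in the mutant libraries, against 26.6% and 27.4% in controls. These shares do not depend on the scaling between libraries, and in both genes the genotypes did not overlap. Every other homologue share that was computed overlapped. Shares within a family are tied to each other, so a higher share of Rab3b lowers that of Rab3d. In TMM-scaled CPM Rab3d itself overlapped between genotypes. The difference in shares from controls was larger in Robo mutant 2, which also had the most acinar transcript, and the part of other cells in it was not tested. An exact permutation test of 2 against 2 libraries cannot give a two-sided p below 0.333.

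The effector gene Sytl4 (chrX:133936385-133981812) was at 477 and 337 CPM in the mutant libraries, against 414 and 562 CPM in controls. Values of the genotypes interleaved, with Robo mutant 2 lowest and control 2 highest. The log2 change was -0.26 (interval -0.94 to 0.42), and -0.021 without control 2 and -0.030 without Robo mutant 2. Of Y-linked genes, Ddx3y was at 69.7 and 87.4 CPM in the mutant libraries, against 87.9 and 88.9 CPM in controls. Uty was at 24.7 and 21.3 CPM, against 47.0 and 47.8 CPM. Eif2s3y was at 34.4 and 55.3 CPM, against 58.0 and 51.9 CPM, and overlapped between genotypes. The part of the sex of the animals in the Sytl4 values was not tested. Sytl4 made up 83.7% and 74.8% of the per-length level of the Sytl genes in Robo mutant 1 and 2, against 78.9% and 82.9% in control 1 and 2, and Sytl1 came second in every library.

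Rph3al (chr11:75830999-75938429) was the most even of the effectors, at 137 and 141 CPM in the mutant libraries, against 141 and 136 CPM in controls. The 4 libraries could not be told apart by genotype. Its log2 change was 0.0078 with an interval of -0.30 to 0.32, which excludes changes of more than 1.24-fold in either direction. Its homologue Rph3a had 15 and 88 counts in the mutant libraries, against 53 and 41 in controls.

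Of the priming genes, Cadps (chr14:12372563-12823079) was at 110 and 111 CPM in the mutant libraries, against 101 and 121 CPM in controls. The mutant values lay between the controls. The log2 change was -0.0058, with an interval of -0.38 to 0.37, and its sign turned under other scalings, as did that of Rph3al. Cadps2 (chr6:23262773-23839421) was at 21.3 and 10.3 CPM in the mutant libraries, against 17.1 and 16.9 CPM in controls. The controls agreed closely, and the mutant libraries lay on either side of them, 2.07-fold apart. Its log2 change of -0.11 had the widest interval, -1.20 to 0.99, and was -0.73 without Robo mutant 1 and 0.33 without Robo mutant 2. Cadps2 made up 23.4% and 12.7% of the CAPS pair per length in Robo mutant 1 and 2, against 20.99% and 18.0% in control 1 and 2.

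**Figure D3:**
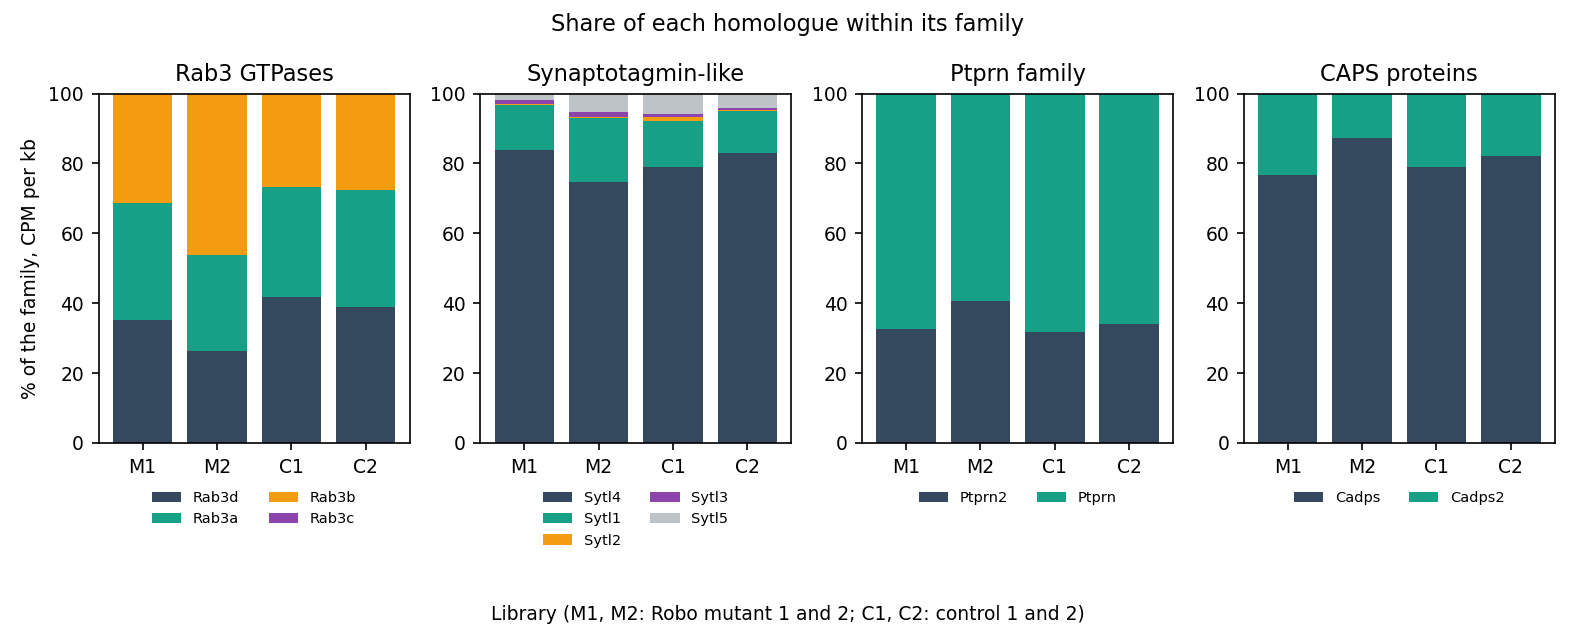
Share of each homologue in the per-length level of its family, in % of CPM per kilobase, in each library. Rab3d is at 35.3% and 26.4% in the mutant libraries and at 41.8% and 38.8% in controls, while Sytl4 and Cadps hold most of their families in all 4.

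The 2 mutant libraries differed from each other more than the controls did in 7 of the 10 genes. The share of all tested genes that did so is not given here, so this count is not read as a trait of the 10. The higher over the lower library had a median ratio of 1.34 between mutant libraries and 1.13 between controls. Over all tested genes with a count in every library, which include genes of low count, these medians were 1.33 and 1.18. Over the 7599 with a mean CPM at or above that of Cadps2, leaving out any with a library at 0, they were 1.21 and 1.12. The mutant value of the 10 was thus close to that of all genes but above that of genes in this range. Robo mutant 2 was the lowest library in 6 of the 10, namely Slc30a8, Ptprn, Sytl4, Rab3d, Cadps2 and Sv2a, and it was lowest in 31.6% of all tested genes. It also had the lowest summed level of β-cell markers and the highest of acinar markers, and their part in these values was not tested. Without Robo mutant 1, 3 genes had an unadjusted p under 0.05 in edgeR, Rab3d, Cadps2 and Sv2a, all with a log2 change below 0, against 19.0% of tested genes. Without Robo mutant 2, 3 had one, Ptprn, Ptprn2 and Rab27a, against 17.4% of tested genes. No gene was in both groups of 3, and 0 of the 10 passed the adjusted threshold without either library.

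**Figure D4:**
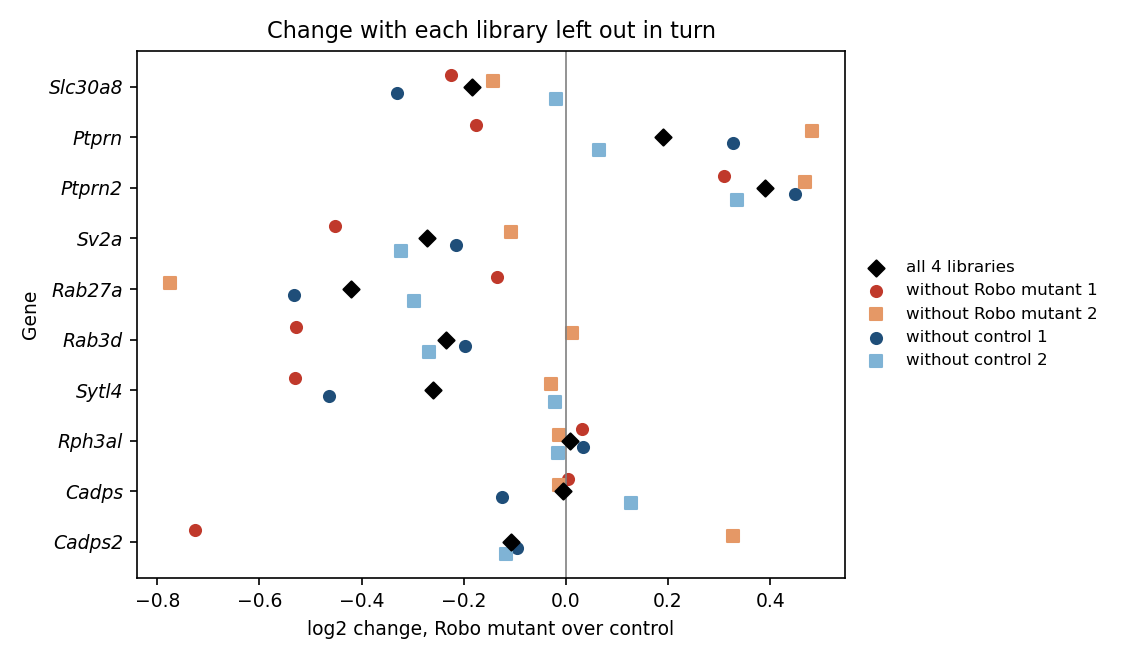
Log2 change, Robo mutant over control, with all libraries (diamonds) and with each library left out in turn. The points of Ptprn2, whose genotypes did not overlap, stay between 0.31 and 0.47. Those of Cadps2, whose genotypes overlapped, spread from -0.73 to 0.33.

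The median log2 change was -0.15 over the 10 genes and -0.013 over all tested genes. Of the 10, 7 were below 0 and 3 above. The share of all tested genes on each side of 0 is not given here. Such counts, also those of the related lists below, are therefore description only. Cadps and Rph3al, both within 0.01 of 0, change sides with the scaling. For 8 of the 10 the 95% interval lay within a log2 change of 1 in either direction, a 2-fold difference, the exceptions being Rab27a and Cadps2.

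The wider granule pathway was read from 6 related lists with 141 genes. In edgeR 0 of the 126 tested genes had an adjusted p under 0.05, and 0 did in DESeq2, which called 0.914% of all tested genes. An unadjusted p under 0.05 in edgeR was found for 6 of the 126, against 6.21% of all tested genes. Both mutant libraries lay above both controls in 17 of the 126 and below both in 32, against 16.1% and 20.4% of all tested genes. The median log2 change over all 6 lists was -0.037.

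Of the 27 other Rab3 and Rab27 GTPases, effectors and regulators, 17 had a log2 change above 0 and 10 below, with a median of 0.080. Rab3b was at 207 and 279 CPM in the mutant libraries, against 151 and 159 CPM in controls. Its mean per length over the 4 libraries was the highest of the list, but Rab3a was above it in 3 of the 4, all but Robo mutant 2. Both mutant libraries were above both controls in Rab3b, with a log2 change of 0.65 ± 0.19 (SE), which did not pass (adjusted p = 0.680 in edgeR and 0.0613 in DESeq2). The motor linker gene Myrip, which connects Rab27 to myosin, was at 4.96 and 3.85 CPM in the mutant libraries, against 1.27 and 1.69 CPM in controls. Rab3gap1, which encodes a subunit of the Rab3 GTPase-activating complex, was at 96.8 and 71.3 CPM in the mutant libraries, against 111 and 127 CPM in controls. Neither passed, with adjusted p of 0.818 and 0.832 in edgeR.

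Among other vesicle membrane genes 4 of 17 tested were above 0 and 13 below, with a median log2 change of -0.078. Syp, the synaptophysin gene and the most abundant, was at 277 and 240 CPM in the mutant libraries, against 291 and 287 CPM in controls. The log2 changes of Syngr1, Pam and Slc18a2, the genes of smallest p, were -0.29, 0.25 and -1.75. Slc18a2, the vesicular monoamine transporter gene, had values of 0.360 and 1.12 CPM in the mutant libraries, against 0.919 and 4.07 CPM in controls, which overlap.

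Zinc transporters and metallothioneins had 12 of 23 above 0 and 11 below, with a median log2 change of 0.059. An unadjusted p under 0.05 was found for 4 of the 23, with 2 higher and 2 lower in mutants, against 6.21% of all tested genes. Slc30a5, which supplies zinc to the early secretory pathway, was at 111 and 133 CPM in the mutant libraries, against 153 and 173 CPM in controls. Slc39a13, a zinc transporter gene of intracellular compartments, was at 25.3 and 24.6 CPM in the mutant libraries, against 39.1 and 34.6 CPM in controls. Both transporters were lower in both mutant libraries, with adjusted p of 0.804 and 0.695 in edgeR. The metallothionein gene Mt1, which encodes a zinc-binding protein, was at 199 and 405 CPM in the mutant libraries, against 163 and 97.8 CPM in controls. It was higher in both mutant libraries, most of all in Robo mutant 2, and did not pass (adjusted p = 0.795 in edgeR, 0.0738 in DESeq2). Robo mutant 2 also had the most acinar transcript, and the part of acinar RNA in the Mt1 values was not tested. Mt2, named after its values were seen, was at 52.1 and 124 CPM in the mutant libraries, against 42.9 and 22.8 CPM in controls. Its log2 change of 1.42 (interval 0.0010 to 2.84) did not pass (adjusted p = 0.804 in edgeR).

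Vacuolar ATPase subunits, which acidify the granule, had 7 of 20 above 0 and a median log2 change of -0.042. Atp6v1g1, the most abundant per length, was at 186 and 165 CPM in the mutant libraries, against 170 and 175 CPM in controls. Atp6v1c2, a low transcript, had 65 and 68 counts in the mutant libraries, against 3 and 2 counts in controls, with adjusted p = 0.680 in edgeR. Atp6v0a2 and Atp6v1b2 had log2 changes of -0.43 and -0.29.

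Exocyst subunits, which tether vesicles, had 5 of 9 above 0 and a median of 0.048. Exoc5, Exoc6b and Exoc2 were lower in both mutant libraries, with log2 changes of -0.43, -0.45 and -0.25, and Exoc7, the most abundant, had one of 0.091. Of 30 genes of granule biogenesis and sorting, 8 were above 0 and 22 below, with a median of -0.079. In 11 of these 30 both mutant libraries lay below both controls and in 1 above, against 20.4% and 16.1% of all tested genes. In the other lists the counts below and above were 5 and 7 of 27 for the Rab3 and Rab27 genes, 4 and 1 of 17 for vesicle membrane genes, and 3 and 2 of 23 for zinc genes. They were 6 and 4 of 20 for ATPase subunits and 3 and 2 of 9 for the exocyst. Of the biogenesis genes Vps52 had a log2 change of -0.41, Ap1b1 of -0.30 and Ap1g1 of -0.25, and 0 of the 30 had an unadjusted p under 0.05. The most abundant, Rab2a, was at 702 and 615 CPM in the mutant libraries, against 677 and 705 CPM in controls.

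**Figure D5:**
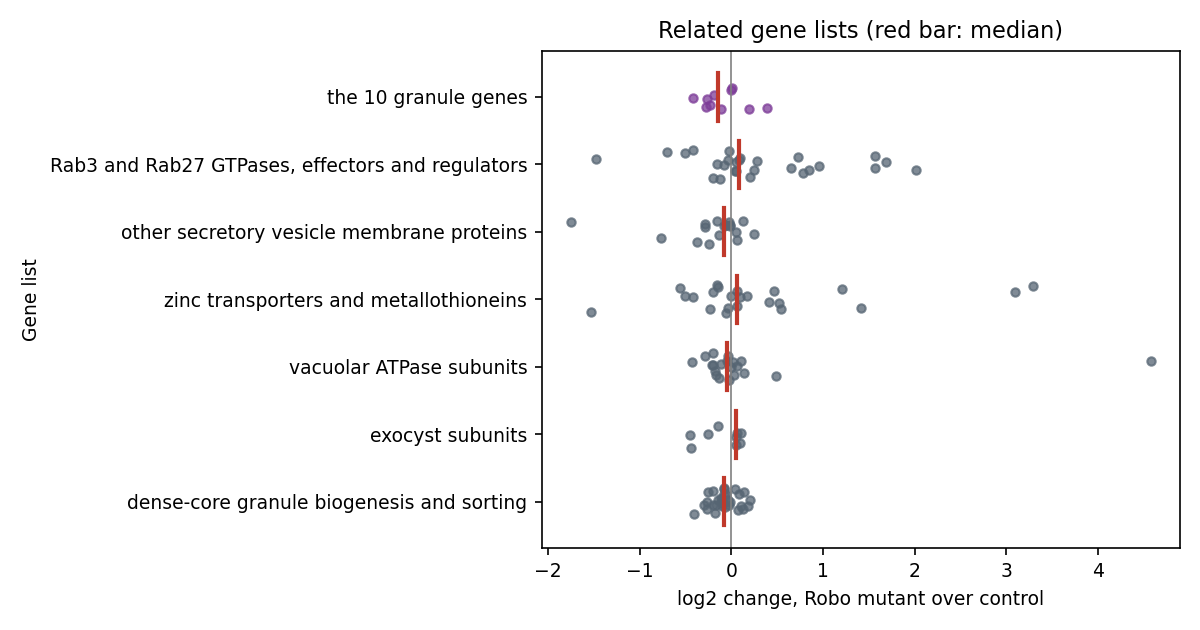
Log2 change, Robo mutant over control, of the 10 genes (top) and of the tested genes in each of 6 related lists, with a red bar at each median. The medians lie between -0.15, for the 10 genes, and 0.080, for the Rab3 and Rab27 list.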

How the data were processed

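Per the submitters' processing notes, edgeR 3.16.5, RSEM 1.3.0, STAR 2.5.3a and bcl2fastq 2.20.0.422 were used on GRCm38, with no role given. Per the labels' protocols, libraries were made with SMART-Seq v4 and Nextera XT, which do not mark strand. The authors deposited gene-level values as whole numbers with unequal totals, treated here as estimated counts from RSEM. The name of the table calls them normalized, and an earlier rescaling was not tested, so the totals may not be the depth.

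The 16517 genes that reached 10 counts in 2 or more libraries were tested, Robo mutant against control, with TMM and edgeR 4.0.16 (glmQLFit, glmQLFTest, two-sided) in R 4.3.3, and adjusted by Benjamini-Hochberg at 0.05. The design named this test for counts. DESeq2 1.42.0 and limma 3.58.1 were alternatives. Errors of log2 changes are SE from the F statistic, and 95% intervals use its degrees of freedom. The steps were run on simulated counts with the same fixed dispersion for every gene. That run does not show what size of change could be called in these libraries. Exon lengths and positions came from GENCODE M21, matched for 51719 of 51912 identifiers. BLAST 2.17.0 found 0 other genes with a near-identical transcript (95% identity over 80% of the length) for any of the 10. An antisense gene, Gm28294, shares 4.45% of the exon length of Ptprn and had at most 7 counts.

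The 10 genes and the 6 related lists were chosen with earlier results of these data known. All 10 were named, and from each related list the 3 genes of smallest p and the most abundant per length.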

Additional observations from a re-analysis of the deposited data

How the results depend on the processing

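The number of the 10 genes past the adjusted threshold was 0 in edgeR under every alternative run (RLE, upper-quartile or no scaling factors, acinar genes left out of the scaling, no filter or at least 50 counts, each library left out), and also in DESeq2 and limma. At an unadjusted p under 0.05 the count was 1 in edgeR, 0 with library totals alone and 0 to 3 with a library left out. Genes whose genotypes did not overlap numbered 3, or 5 with library totals alone, which added Rab3d and Rph3al. The share of all tested genes with library totals alone is not given here, so the 5 is description only. Of 80 values under 8 processing alternatives 5 turned sign, in Cadps and Rph3al. The log2 change of Cadps was 0.011 with RLE factors, 0.0043 with upper-quartile factors, 0.0034 with the stricter filter and 0.011 in DESeq2, and that of Rph3al was -0.051 with library totals alone. With a library left out the log2 change ran from -0.18 to 0.48 for Ptprn, -0.53 to 0.012 for Rab3d, -0.015 to 0.033 for Rph3al, -0.13 to 0.13 for Cadps and -0.73 to 0.33 for Cadps2. The cause was not tested. The ratio of summed levels stayed between 0.815 and 0.968. In the related lists 0 genes passed under the same alternatives, which were added for them after seeing the data. No paired analysis was possible because the labels give the libraries of the 2 genotypes no shared replicate numbers. A lone library left in a genotype is assumed to vary like the other pair.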
